A study of Mus musculus with 12 samples.

Results

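Thrombospondins and other matricellular proteins were followed in cultured cardiomyocytes after stimulation with cytokines of the interleukin-6 family. The genes are the thrombospondins Thbs1, Thbs2, Thbs3 and Thbs4, tenascin-C (Tnc), osteopontin (Spp1), Sparc, periostin (Postn) and fibronectin (Fn1). They were taken by name, and all 9 of them are among the 22915 genes of the table. The set was chosen by the normalized counts of Thbs4, which were higher with all 3 cytokines than with PBS. Values of the 9 genes against PBS are therefore given as descriptions without a p-value. Their calls past the threshold against PBS are counted, but nothing is read from these counts. The rule of this choice did not use comparisons of the 9 genes between cytokines, which were tested, and other genes were tested against PBS as well. The 9 genes and the gene lists were, however, chosen with earlier results of these data known. The p-values do not account for that.

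Cardiomyocytes came from C57/Bl6 male mice of 12 weeks and were kept for 24 h in normoxia. They received mLIF, the murine form of leukemia inhibitory factor, mOSM, which is murine oncostatin M, hlOSM, a human-like oncostatin M, or the same volume of PBS, the solvent. The cytokines were given at 25 ng/mL according to the sample descriptions, whereas the methods of the study name a slightly lower concentration. In murine cells mLIF signals through the LIF receptor and mOSM through the oncostatin M receptor, and hlOSM, a murine oncostatin M carrying the human AB loop, through both. Each condition has 3 libraries, 12 in all. It is not stated whether they came from separate mice or preparations, so that p-values measure only the spread between these libraries, which may be technical.

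Matricellular proteins are secreted into the extracellular matrix without serving mainly as a scaffold, and they tune how cells adhere, migrate and respond to growth factors. Most are sparse in the healthy adult heart and abundant after infarction or pressure overload. Thbs1 and Thbs2 encode proteins that assemble into trimers and are known for blocking angiogenesis, and that of Thbs1 also for activating latent TGF-β. The proteins of Thbs3 and Thbs4 assemble into pentamers, and thrombospondin-4 also acts inside the cell, where it binds ATF6 and is linked to an adaptive stress response of the endoplasmic reticulum. Fibronectin is a structural glycoprotein of the matrix and is treated here with the matricellular genes because it shares their integrin receptors.

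Values are normalized counts, rounded to whole numbers by the authors, and they are not divided by gene length. They add up to between 2745748 and 2911891 per library, totals that are not numbers of sequenced reads, and they leave the depth behind each value unknown. Fold changes come from a single limma fit of all libraries on log2(normalized count + 1), a scale that understates changes of genes with low values. Of the table, 13184 genes that reached 10 normalized counts in 3 or more libraries were tested, and all 9 genes were among them. A gene is said to pass the threshold if its two-sided p, adjusted after Benjamini and Hochberg over all genes tested, is under 0.05.

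Differences between replicate numbers are missing from the values. Averaged over the 4 conditions, libraries numbered 3 differed from those numbered 1 by 0.0415 on the log2 scale, with an SD of only 0.0019 over 6626 genes, where the spread within conditions gives 0.0742. The step that equalized them is not named in the sources used here. Libraries of the same number are thus not independent: for each gene, a low value in 1 of them goes with high values in the others. A fit without the replicate number counts 8 residual degrees of freedom where 6 remain, and its SE and p are too small. The comparison was therefore also fitted with the replicate number as a block, which leaves the log2 fold changes as they are, and calls lost with it are named beside the result.

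Windows of 250 bases upstream of the transcription start were taken from RefSeq (GRCm38.p6) for 7 of the 9 genes and searched on both strands for TTCNNNGAA, the form to which STAT factors bind, for TGANTCA, a form bound by AP-1, and for TATAAA and CCAAT, elements of core promoters. For Sparc the window, at chr11:55420081-55420330, lies 3103 bases inside the gene as the table places it, and for the others within 27 bases of its start. No window of the 7 genes held TTCNNNGAA or TGANTCA, which 7.02% and 6.75% of 32841 mouse promoter windows did. TATAAA, present in 12.4% of all windows, was found for Thbs2, Tnc, Spp1 and Postn, at −26 to −21 from the start in Postn and farther upstream in the others. CCAAT, present in 33.9% of all windows, was found for Thbs2, Thbs3 and Spp1. The windows are printed for Thbs4, Spp1 and Thbs2, whose levels differed most between conditions and in opposite directions, and in capitals stand TATAAA and CCAAT or their reverse complements.
Thbs4, chr13:92794819-92795068, minus strand: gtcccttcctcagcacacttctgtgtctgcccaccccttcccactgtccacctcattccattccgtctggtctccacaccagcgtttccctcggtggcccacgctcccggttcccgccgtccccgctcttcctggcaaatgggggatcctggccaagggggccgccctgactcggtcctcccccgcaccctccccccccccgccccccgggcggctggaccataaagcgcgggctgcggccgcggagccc
Spp1, chr5:104434861-104435110, plus strand: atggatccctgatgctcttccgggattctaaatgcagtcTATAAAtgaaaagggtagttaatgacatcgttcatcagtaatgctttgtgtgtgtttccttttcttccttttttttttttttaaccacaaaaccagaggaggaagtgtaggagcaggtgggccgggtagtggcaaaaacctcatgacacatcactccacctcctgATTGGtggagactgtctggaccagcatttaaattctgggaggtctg
Thbs2, chr17:14694263-14694512, minus strand: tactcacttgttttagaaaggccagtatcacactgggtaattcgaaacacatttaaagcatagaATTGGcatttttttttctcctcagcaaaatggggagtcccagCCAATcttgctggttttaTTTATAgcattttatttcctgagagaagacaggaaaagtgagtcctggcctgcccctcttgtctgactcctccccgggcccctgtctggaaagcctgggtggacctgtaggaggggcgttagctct
With 70.8% G and C the window of Thbs4 was rich in these bases and held none of the motifs, whereas those of Spp1 and Thbs2 had 43.6% and 46.8%, beside a median of 52.4% over all windows. A match or its absence in these windows describes the letters only.

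Thbs4 lies on chr13:92751590-92794818 (mm10, minus strand), with 3.289 kb of exon. Its normalized counts were 76, 77 and 34 in PBS and 176, 171 and 240 with mLIF. The mOSM libraries had 237, 218 and 320, and the hlOSM libraries 241, 266 and 325. Every cytokine-treated library was thus above every PBS library, PBS library 3 was the lowest of all, while the libraries numbered 3 were the highest of each cytokine, and the mOSM libraries overlapped with those of mLIF and of hlOSM. Against PBS the fold was 3.27 (mLIF), 4.30 (mOSM) and 4.64 (hlOSM), which are log2 fold changes of 1.71, 2.10 and 2.22, each with an SE of 0.21. Among the 13184 genes Thbs4 held rank 16 of the rises with mLIF, rank 93 with mOSM and rank 86 with hlOSM. Without PBS library 3 the log2 fold changes were 1.33, 1.72 and 1.83.

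Between cytokines the differences of Thbs4 were smaller. The log2 fold change was 0.40 (SE 0.21, 95% interval −0.04 to 0.83) for mOSM against mLIF and 0.51 (SE 0.21, 95% interval 0.07 to 0.94) for hlOSM against mLIF. Neither passed the threshold (limma, adjusted p = 0.258 and 0.107), although the 3 hlOSM libraries were all above the 3 mLIF libraries. With the replicate block the adjusted p was 0.299 and 0.120. Without the block but also without PBS library 3 the adjusted p was 0.0443 for mOSM and 0.00752 for hlOSM, and in a fit of only the 6 libraries compared it was 0.0256 and 0.00264, p that are too small for the reason given above. Between hlOSM and mOSM the log2 fold change was 0.11 (SE 0.21, 95% interval −0.32 to 0.55, adjusted p = 0.952).

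Thbs2 moved the opposite way. The gene lies on chr17:14665500-14694235 (minus strand, 7.003 kb of exon). Single libraries had 222, 233 and 281 normalized counts in PBS and 215, 243 and 233 with mLIF. The mOSM libraries had 64, 54 and 50, and the hlOSM libraries 53, 53 and 55. The PBS and mLIF libraries overlapped, and so did the mOSM and hlOSM libraries, with a wide gap between these pairs of conditions. Relative to PBS, mLIF gave a log2 fold change of −0.08, mOSM of −2.11 and hlOSM of −2.16 (SE 0.10 each). Against mLIF, Thbs2 fell by 2.03 on the log2 scale with mOSM (SE 0.10, limma, adjusted p = 5.17e-12) and by 2.08 with hlOSM (SE 0.10, adjusted p = 4.91e-12). It was 4.07-fold and 4.23-fold lower, ranks 22 and 17 among the falls of 13184 genes.

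Thbs1, the most abundant thrombospondin in PBS, lies on chr2:118111876-118127133 (plus strand, 6.073 kb of exon). Libraries held 1280, 1202 and 1655 normalized counts in PBS and 1177, 1146 and 1368 with mLIF. The mOSM libraries had 633, 683 and 581, and the hlOSM libraries 612, 613 and 498. As for Thbs2, all oncostatin M-treated libraries lay below all PBS and mLIF libraries. Set against PBS, log2 fold changes were −0.15 for mLIF, −1.11 for mOSM and −1.25 for hlOSM, with an SE of 0.10. Against mLIF, Thbs1 fell by 0.96 with mOSM (SE 0.10, limma, adjusted p = 3.29e-07) and by 1.10 with hlOSM (SE 0.10, adjusted p = 2.95e-08), which is 1.94-fold and 2.14-fold lower. An exonic stretch of 3.43% of Thbs1 is shared with Gm29233 on the other strand.

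Thbs3 (chr3:89215180-89226837, plus strand, 4.823 kb of exon) was close to the limit of what was tested. It had 4, 12 and 11 normalized counts in PBS, 10, 7 and 13 after mLIF, 23, 13 and 13 after mOSM, and 21, 19 and 13 after hlOSM. The oncostatin M libraries were all above those of PBS and reached down to the highest mLIF library. Log2 fold changes against PBS were 0.22 (mLIF), 0.86 (mOSM) and 0.99 (hlOSM), all with an SE of 0.34. Against mLIF the log2 fold change was 0.64 with mOSM (95% interval −0.06 to 1.35, adjusted p = 0.256) and 0.77 with hlOSM (95% interval 0.07 to 1.48, adjusted p = 0.131), and neither passed the threshold. Since 6.59% of its exonic bases are shared with Mtx1 on the other strand and the strand setting of the counting is not stated, reads of that stretch cannot be assigned with certainty.

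**Figure D1:**
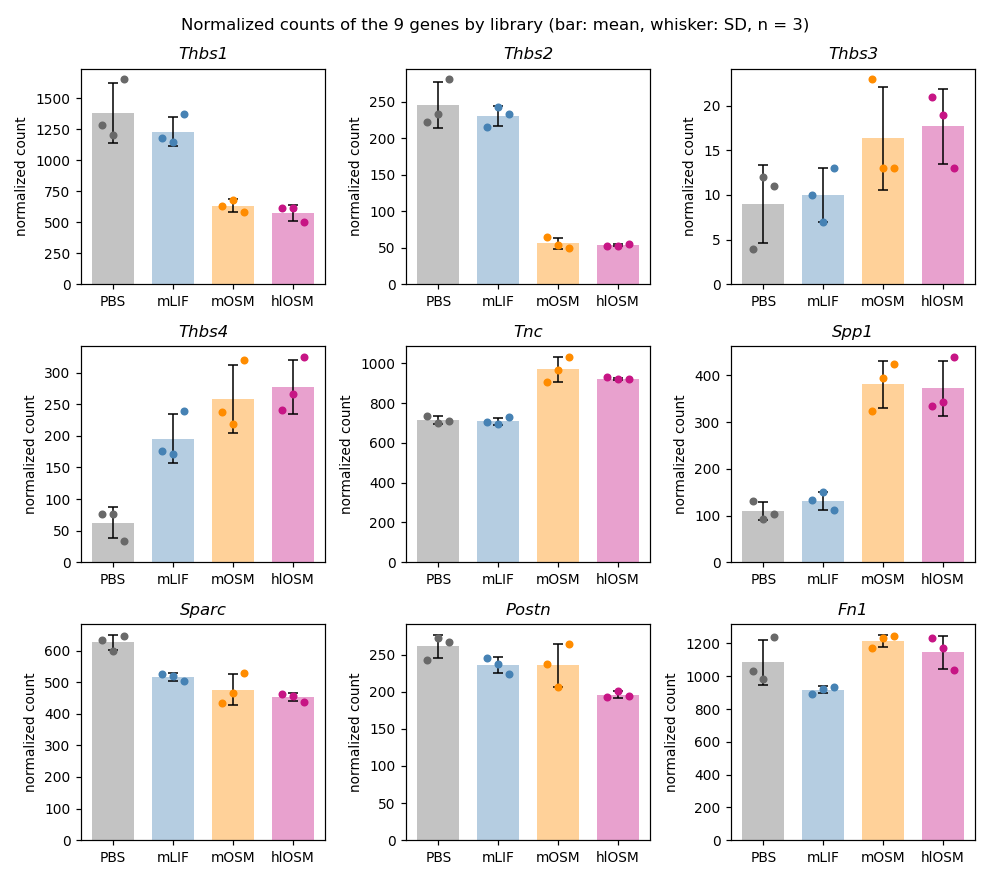
Normalized counts (y axis, linear, from 0) of the 9 genes in each library (points), with the mean (bar) and SD (whisker, n = 3) of PBS, mLIF, mOSM and hlOSM (x axis). Thbs4 is above PBS in all 9 cytokine-treated libraries, Thbs1 and Thbs2 are low and Spp1 and Tnc high in the 6 mOSM and hlOSM libraries, and Sparc is below PBS with all cytokines.

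The make-up of the thrombospondins shifted with these changes. To compare the genes with each other, normalized counts were divided by the kilobases of exon and expressed as a percentage of the 4 thrombospondins. Thbs1 held 80.0% ± 3.48 (SD, n = 3) of this level in PBS, 68.3% ± 0.899 after mLIF, 53.8% ± 6.20 after mOSM and 49.8% ± 6.06 after hlOSM. Thbs4 held 6.99% ± 3.30 (SD, n = 3) in PBS, 19.9% ± 1.68 after mLIF, 40.3% ± 6.80 after mOSM and 44.3% ± 6.48 after hlOSM. The highest Thbs4 share among the mLIF libraries was 21.8% and the lowest among the mOSM libraries 35.0%, so that these shares did not overlap between mLIF and oncostatin M. A share also rises when the other thrombospondins fall. Per kb, Thbs4 itself averaged 59.5 with mLIF, 78.5 with mOSM and 84.3 with hlOSM. In normalized counts of Thbs4 the mOSM libraries overlapped with those of mLIF, and the hlOSM libraries did not. Thbs2 held 12.4% in PBS and 11.2% with mLIF, against 4.13% with mOSM and 4.03% with hlOSM, whereas Thbs3 stayed under 2.6% in every library. The summed level was 283 ± 37.0 per kb (SD, n = 3) in PBS and 297 ± 32.2 with mLIF, and it was 194 ± 7.59 with mOSM and 190 ± 3.81 with hlOSM. These shares contain the contrasts against PBS that guided the choice of Thbs4 and are given without a test.

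**Figure D2:**
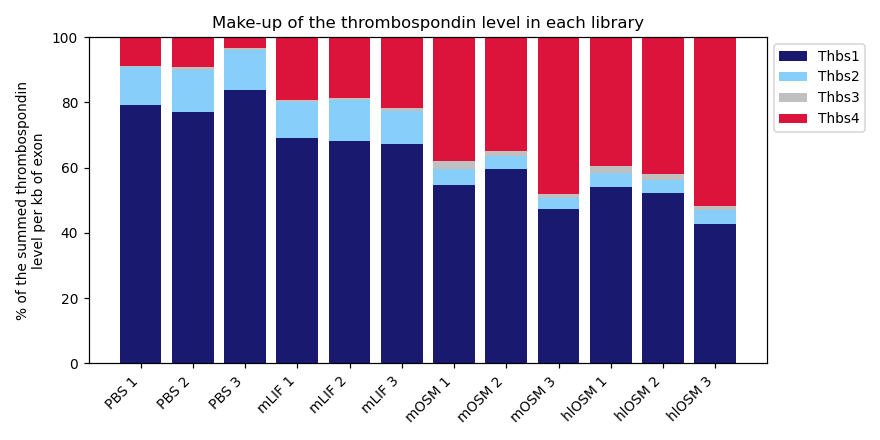
Share of each thrombospondin (y axis, % of the summed level of Thbs1 to Thbs4 per kb of exon) in each of the 12 libraries (x axis). The Thbs4 share is at most 9.11% in PBS, between 18.8% and 21.8% with mLIF and at least 35.0% with mOSM and hlOSM.

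Spp1, which encodes the integrin and CD44 ligand osteopontin, lies on chr5:104435118-104441050 (plus strand, 1.648 kb of exon). Its normalized counts were 131, 93 and 104 in PBS and 134, 150 and 111 with mLIF. The mOSM libraries had 324, 394 and 424, and the hlOSM libraries 335, 343 and 440. PBS and mLIF libraries overlapped, and the lowest oncostatin M library was more than 2 times the highest mLIF library. The log2 fold changes from PBS came to 0.27 for mLIF, 1.80 for mOSM and 1.76 for hlOSM (SE 0.13 in each case). Against mLIF, Spp1 rose 2.88-fold with mOSM (log2 fold change 1.53, SE 0.13, limma, adjusted p = 1.42e-08) and 2.82-fold with hlOSM (1.49, SE 0.13, adjusted p = 1.53e-08). On the same strand 18.8% of its exonic bases also belong to Gm42793, and reads on more than 1 gene were left out by the authors, so that reads lying there on both genes were not counted for Spp1.

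Tnc encodes tenascin-C, a hexameric glycoprotein that loosens the adhesion of cells to fibronectin. The gene lies on chr4:63959785-64047015 (minus strand, 7.772 kb of exon), and 2.27% of its exonic bases are shared with 8030451A03Rik on the other strand. Levels were 737, 698 and 709 normalized counts in PBS, 704, 695 and 729 after mLIF, 908, 968 and 1033 after mOSM, and 929, 920 and 920 after hlOSM. The shift was small but larger than the spread between libraries, since all oncostatin M libraries were above all others. Relative to PBS, mLIF gave a log2 fold change of −0.01, mOSM of 0.44 and hlOSM of 0.37 (SE 0.05 each). Against mLIF, Tnc rose 1.36-fold with mOSM (log2 fold change 0.45, SE 0.05, limma, adjusted p = 2.91e-06) and 1.30-fold with hlOSM (0.38, SE 0.05, adjusted p = 1.97e-05).

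Fn1 encodes fibronectin, onto which many of the other proteins bind, and lies on chr1:71585520-71653200 (minus strand, 11.69 kb of exon, 2.50% of it shared with Apol7d on the other strand). Normalized counts of Fn1 were 1030, 986 and 1240 in PBS and 894, 924 and 934 with mLIF. The mOSM libraries had 1173, 1232 and 1243, and the hlOSM libraries 1232, 1171 and 1037. The mLIF libraries lay below those of every other condition, and the oncostatin M libraries overlapped with PBS. Set against PBS, log2 fold changes were −0.24 for mLIF, 0.17 for mOSM and 0.08 for hlOSM, with an SE of 0.07. Against mLIF, Fn1 rose by 0.41 with mOSM (SE 0.07, limma, adjusted p = 0.000356) and by 0.32 with hlOSM (SE 0.07, adjusted p = 0.00296).

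Sparc encodes a collagen-binding protein of the basement membrane and interstitial matrix, and lies on chr11:55394500-55423183 (minus strand, 3.788 kb of exon). Normalized counts of Sparc were 634, 600 and 646 in PBS, 526, 519 and 503 after mLIF, 434, 466 and 530 after mOSM, and 463, 457 and 438 after hlOSM. All cytokine-treated libraries were below all PBS libraries, which no other of the 9 genes showed. Log2 fold changes against PBS were −0.28 (mLIF), −0.40 (mOSM) and −0.47 (hlOSM), all with an SE of 0.06. Against mLIF the value was −0.12 with mOSM (95% interval −0.25 to 0.01, adjusted p = 0.270) and −0.19 with hlOSM (SE 0.06, adjusted p = 0.0471). The latter call was lost with the replicate block (SE 0.07, adjusted p = 0.0842) and when any of 8 libraries was left out (PBS libraries 1 and 2, and each of mLIF and hlOSM), with an adjusted p of up to 0.145.

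Postn encodes periostin, a product mainly of activated fibroblasts that promotes collagen cross-linking. The gene lies on chr3:54361109-54391037 (plus strand, 8.702 kb of exon). Single libraries of Postn had 243, 273 and 267 normalized counts in PBS, 246, 238 and 224 after mLIF, 237, 206 and 264 after mOSM, and 193, 201 and 194 after hlOSM. The hlOSM libraries lay below those of all other conditions, and the mOSM libraries spread over the range of PBS and mLIF. The log2 fold changes from PBS came to −0.14 for mLIF, −0.15 for mOSM and −0.41 for hlOSM (SE 0.08 in each case). Against mLIF, the log2 fold change of Postn was −0.27 with hlOSM (SE 0.08, limma, adjusted p = 0.0250), a call lost with the replicate block (SE 0.09, adjusted p = 0.0520) and without mLIF library 1 or 2 or hlOSM library 1 or 3 (adjusted p of up to 0.109). With mOSM the log2 fold change was −0.01 (95% interval −0.18 to 0.16, adjusted p = 0.969).

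**Figure D3:**
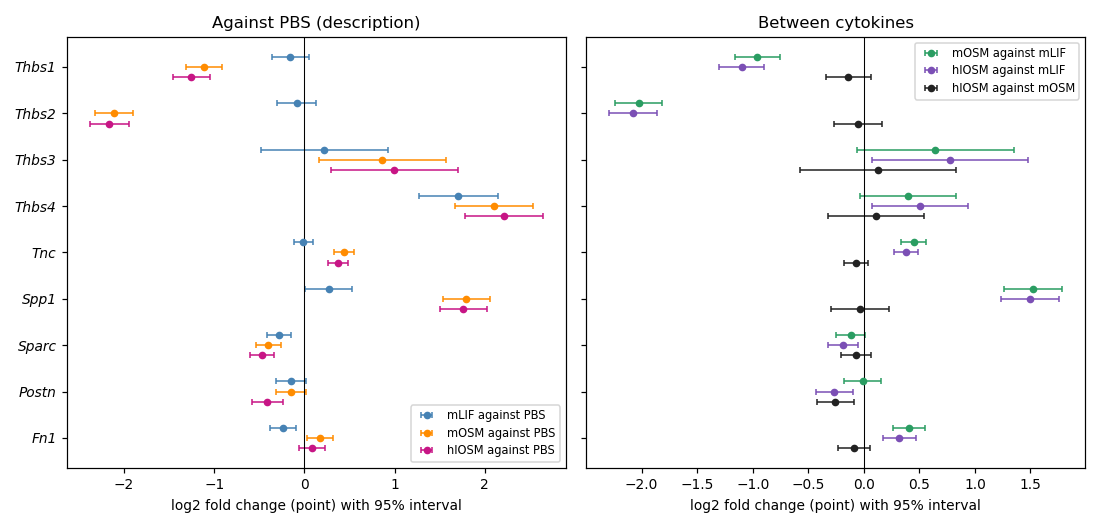
Log2 fold change (x axis, log2(normalized count + 1) scale, point with 95% interval from the limma fit) of the 9 genes (rows) for each cytokine against PBS on the left, shown as a description, and between cytokines on the right. Intervals for hlOSM against mOSM include 0 for all genes but Postn, and those of Thbs1, Thbs2, Tnc, Spp1 and Fn1 against mLIF exclude 0 for both mOSM and hlOSM.

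Counted over the 9 genes, 3 passed the threshold with mLIF against PBS, where 9.91% of all genes tested did, with Thbs4 higher and Sparc and Fn1 lower. With mOSM 6 passed, where 31.2% of all genes did, with Thbs4, Tnc and Spp1 higher and Thbs1, Thbs2 and Sparc lower. With hlOSM 8 passed, all but Fn1, where 37.9% of all genes did, with Thbs3 higher and Postn lower in addition. These comparisons share the PBS libraries, and since they entered the choice of genes nothing is read from the counts. With the replicate block 2, 6 and 8 passed, where 5.95%, 25.3% and 31.2% of all genes did, and Fn1 was no longer called with mLIF. Without PBS library 3, which had the highest values of Thbs1, Thbs2, Sparc and Fn1 in PBS and the lowest of Thbs4, 8 genes passed with mOSM and 9 with hlOSM, and the rise of Thbs3 with hlOSM was not called without PBS library 1 or without hlOSM library 1 or 2. The count for mLIF was 1 without mLIF library 3, and 2 without mLIF library 1 or 2 or PBS library 3. Libraries did not overlap for 3 genes with mLIF, 7 with mOSM and 8 with hlOSM, beside 30.3%, 40.1% and 47.0% of all genes.

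Against mLIF, 5 of the 9 genes passed the threshold with mOSM, where 11.8% of the 13184 genes did. Tnc, Spp1 and Fn1 were higher and Thbs1 and Thbs2 lower. With hlOSM 7 of 9 passed, where 16.6% of all genes did, the same 5 genes and in addition Sparc and Postn, both lower. With the replicate block 5 passed in each comparison, where 8.81% and 12.2% of all genes did, and Sparc and Postn were not among them. The median log2 fold change of the 9 genes was 0.40 for mOSM and 0.32 for hlOSM against mLIF, beside −0.0066 and −0.0067 for all genes tested. Both comparisons use the same mLIF libraries. The libraries did not overlap for 5 of the genes with mOSM, beside 27.1% of all genes, and for 8 with hlOSM, beside 31.7%, where only Thbs3 overlapped.

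Between hlOSM and mOSM, which differ in the AB loop and thereby in the use of the LIF receptor, none of the 9 genes passed the threshold in limma, and 1 of them, Postn, had an unadjusted p under 0.05. Of all genes 0.106% passed, and 987 of 13184 had an unadjusted p under 0.05, against 0.0152% and 599 with the replicate block. For Postn the log2 fold change was −0.26 (SE 0.08, 95% interval −0.42 to −0.09, adjusted p = 0.393) and its libraries did not overlap, as was the case for 9.74% of all genes. The 95% interval was −0.34 to 0.06 for Thbs1, −0.27 to 0.16 for Thbs2 and −0.29 to 0.23 for Spp1. It was −0.18 to 0.04 for Tnc, −0.20 to 0.06 for Sparc and −0.24 to 0.06 for Fn1. For Thbs3 the interval of −0.57 to 0.83 leaves room for larger differences, which could not be detected at this level.

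The order of levels within a condition changed as well. Per kb of exon, Thbs1 was highest in PBS (227 ± 39.9, SD, n = 3), followed by Sparc (165 ± 6.30), Fn1 (92.9 ± 11.6), Tnc (92.0 ± 2.59), Spp1 (66.3 ± 11.9), Thbs2 (35.0 ± 4.48), Postn (30.0 ± 1.82), Thbs4 (19.0 ± 7.46) and Thbs3 (1.87 ± 0.904). Fn1 and Tnc alone overlapped among neighbors in this order. With mLIF, Thbs4 (59.5 ± 11.7) came to lie above Thbs2 (32.9 ± 2.03) and Postn (27.1 ± 1.28), and Tnc, Spp1 and Fn1 overlapped with their neighbors. With mOSM, Spp1 was highest (231 ± 31.1), followed by Sparc and Tnc, which overlapped, then by Thbs1 and Fn1, which overlapped, and by Thbs4 (78.5 ± 16.5). With hlOSM, Spp1 was again highest (226 ± 35.5), Sparc and Tnc overlapped, and so did Fn1 (98.1 ± 8.54), Thbs1 (94.6 ± 10.9) and Thbs4 (84.3 ± 13.1) as neighbors, above Postn, Thbs2 and Thbs3.

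The receptors through which these proteins act changed in part. Of 20 receptor genes in the list, 19 were tested. Against PBS, mLIF raised 2 and lowered 1, mOSM raised 6 and lowered 6, and hlOSM raised 7 and lowered 7, where 9.91%, 31.2% and 37.9% of all genes passed, and with hlOSM the median log2 fold change was 0.06, beside −0.0052 for all genes. In the fit with the replicate block mLIF raised 1 and lowered 0, mOSM raised 6 and lowered 6, and hlOSM raised 7 and lowered 5. Of all genes 5.95%, 25.3% and 31.2% passed in that fit. Itgb8, the β8 chain of an integrin that activates TGF-β, had 26, 30 and 23 normalized counts in PBS, 32, 27 and 30 after mLIF, 272, 274 and 284 after mOSM, and 242, 241 and 320 after hlOSM. Like Spp1 and Tnc it rose with oncostatin M against mLIF, by 3.18 on the log2 scale (SE 0.12, adjusted p = 2.42e-14) with mOSM and 3.12 (SE 0.12, adjusted p = 3.63e-14) with hlOSM. Itga8, the α8 chain of a receptor of osteopontin, fibronectin and tenascin-C, fell from 29, 17 and 18 in PBS to 1, 2 and 2 with mOSM and 2, 3 and 4 with hlOSM, and had 14, 9 and 7 with mLIF. Against mLIF it fell by 2.02 (SE 0.37, adjusted p = 0.000503) with mOSM and fell by 1.44 (SE 0.37, adjusted p = 0.00809) with hlOSM, at values close to the pseudocount of 1. Itga8 was among the genes tested only through its PBS and mLIF libraries.

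Other receptors moved less. Sdc1, encoding the proteoglycan syndecan-1, averaged 77.0 ± 10.1 (SD, n = 3) in PBS, 91.3 ± 8.08 after mLIF, 201 ± 9.07 after mOSM and 189 ± 9.24 after hlOSM, and it rose against mLIF by 1.13 (SE 0.10, adjusted p = 2.48e-08) and 1.05 (SE 0.10, adjusted p = 6.41e-08). Cd44, a receptor of osteopontin, rose already with mLIF against PBS, by 0.41 (SE 0.10, adjusted p = 0.0118), and averaged 359 ± 62.4 in PBS, 474 ± 41.0 after mLIF, 671 ± 31.3 after mOSM and 721 ± 97.5 after hlOSM. Itga9 (0.21, SE 0.07, adjusted p = 0.0477) and Itgb3 (−0.35, SE 0.10, adjusted p = 0.0352) passed with mLIF, but not with the replicate block (adjusted p = 0.0879 and 0.113). Lrp1, a scavenger receptor that clears thrombospondins, was lower with hlOSM than with PBS by 0.34 (SE 0.06, adjusted p = 5.84e-05). Cd36 and Cd47, the receptors of thrombospondin-1 named here after their values were seen, averaged 1409 ± 57.8 and 319 ± 21.1 in PBS and 1468 ± 66.6 and 308 ± 11.0 with hlOSM, without passing the threshold in any comparison.

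**Figure D4:**
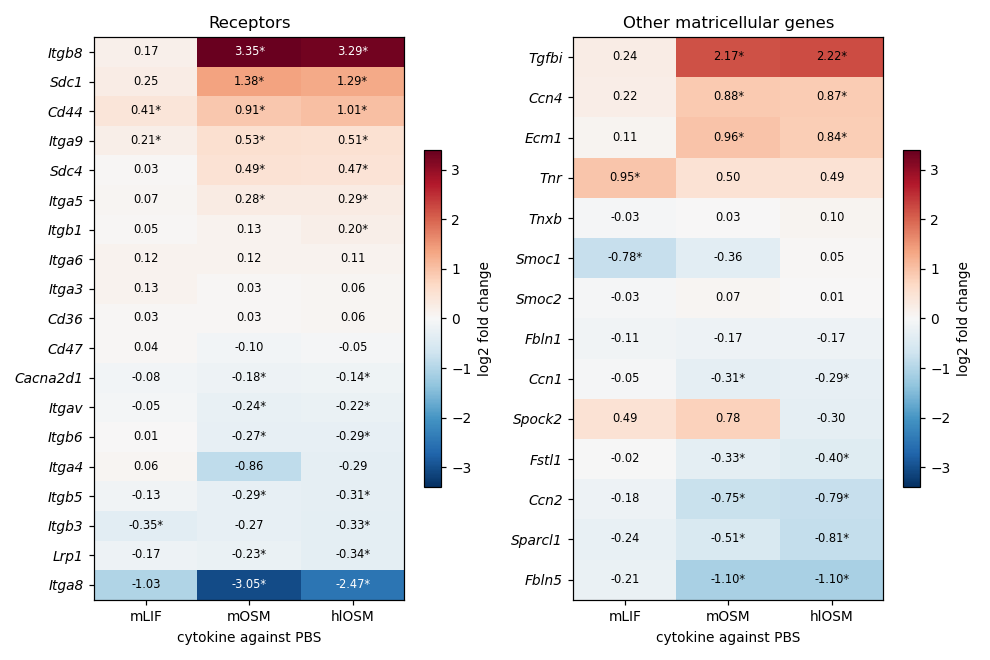
Log2 fold change against PBS (cell number and color, log2(normalized count + 1) scale) with mLIF, mOSM and hlOSM (columns) of the 19 receptor genes tested on the left and the 14 other matricellular genes tested on the right, each ordered by hlOSM, with an asterisk for an adjusted p under 0.05. Itgb8 and Tgfbi are at the top and Itga8 and Fbln5 at the bottom with both mOSM and hlOSM.

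Of 25 other matricellular genes listed, 20 were in the table and 14 were tested. With mLIF 1 was raised (Tnr, log2 fold change 0.95, SE 0.27, adjusted p = 0.0254) and 1 lowered (Smoc1, −0.78, SE 0.22, adjusted p = 0.0269), whereas 3 were raised and 5 lowered with both mOSM and hlOSM against PBS, where 9.91%, 31.2% and 37.9% of all genes passed. Values of Tnr were low, at 33, 23 and 12 in PBS and 30, 45 and 53 with mLIF, and its libraries overlapped. The call of Smoc1 was lost with the replicate block (adjusted p = 0.0666), and the counts with mOSM and hlOSM stayed at 3 raised and 5 lowered. With the block 5.95%, 25.3% and 31.2% of all genes passed for mLIF, mOSM and hlOSM. Tgfbi, whose product is the closest relative of periostin, had 35, 43 and 29 in PBS, 56, 42 and 31 after mLIF, 125, 149 and 226 after mOSM, and 158, 141 and 212 after hlOSM. It rose against mLIF by 1.92 (SE 0.20, adjusted p = 5.27e-07) with mOSM and by 1.98 (SE 0.20, adjusted p = 2.51e-07) with hlOSM. Postn did not pass the threshold upward in any comparison. Ccn2, encoding connective tissue growth factor, fell from 754 ± 46.6 (SD, n = 3) in PBS and 665 ± 50.1 with mLIF to 449 ± 42.3 with mOSM and 437 ± 23.8 with hlOSM (adjusted p = 6.89e-06 and 2.27e-06 against mLIF), in the same direction as Thbs1. With hlOSM against PBS, Ccn4 rose by 0.87 and Ecm1 by 0.84 on the log2 scale, whereas the log2 fold change was −0.81 for Sparcl1, a relative of Sparc, and −1.10 for Fbln5. Against mLIF, 3 were raised and 4 lowered with mOSM and 4 and 5 with hlOSM, where 11.8% and 16.6% of all genes passed. The median was −0.15 for hlOSM against mLIF, beside −0.0067 for all genes.

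Of 18 genes of matrix assembly, all tested, mLIF raised 2 and lowered 1 against PBS, mOSM raised 5 and lowered 5, and hlOSM raised 6 and lowered 5, where 9.91%, 31.2% and 37.9% of all genes passed, with medians of 0.06, 0.08 and 0.07. In the fit with the replicate block mLIF raised 2 and lowered 0, mOSM raised 4 and lowered 3, and hlOSM raised 6 and lowered 4. There 5.95%, 25.3% and 31.2% of all genes passed. Loxl4, a lysyl oxidase that cross-links collagen, averaged 63.3 ± 8.08 (SD, n = 3) in PBS, 92.0 ± 13.7 after mLIF, 143 ± 8.39 after mOSM and 141 ± 13.6 after hlOSM, and its rise with mLIF against PBS (0.53, SE 0.11) had an adjusted p of 0.00528. Like that of Thbs4, its mean was higher with all 3 cytokines than with PBS. Bmp1, which cleaves procollagen and pro-lysyl oxidase, rose against mLIF by 0.76 with mOSM (SE 0.10, adjusted p = 1.33e-05) and by 0.70 with hlOSM (SE 0.10, adjusted p = 2.64e-05), whereas Lox fell by 0.58 (SE 0.13, adjusted p = 0.00289) and 0.64 (SE 0.13, adjusted p = 0.000975). Among the prolyl hydroxylases P4ha3 fell by 2.01 with mOSM against PBS (SE 0.37, adjusted p = 0.000224), from 22, 15 and 34 to 5, 10 and 2. Its place among the genes tested rests on the PBS and mLIF libraries, and the mOSM values are near the floor, where the pseudocount shapes the fold change.

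Because thrombospondin-4 binds ATF6, 12 genes were examined and tested, Atf6 itself and chaperones or other genes of this response. Atf6 averaged 1234 ± 15.8 (SD, n = 3) in PBS, 1250 ± 16.3 after mLIF, 1264 ± 29.5 after mOSM and 1264 ± 72.7 after hlOSM, and passed the threshold in no comparison. With mLIF 1 of the 12 genes was raised, with mOSM 3 were raised and 1 lowered, and with hlOSM 3 were raised against PBS, where 9.91%, 31.2% and 37.9% of all genes passed, with medians of −0.08, 0.07 and 0.08. Syvn1, a ubiquitin ligase of protein degradation at the endoplasmic reticulum, rose with all 3 cytokines, by 0.38, 0.50 and 0.50 (SE 0.11, adjusted p = 0.0284, 0.00116 and 0.000905). Sdf2l1, a chaperone cofactor, rose by 0.55 with mOSM (SE 0.16, adjusted p = 0.0103) and by 0.45 with hlOSM (SE 0.16, adjusted p = 0.0272), and Hsp90b1 fell by 0.19 with mOSM (SE 0.07, adjusted p = 0.0309). With the replicate block 0, 2 and 1 were raised and 1 lowered with mOSM, where 5.95%, 25.3% and 31.2% of all genes passed. The calls of Syvn1 with mLIF (adjusted p = 0.0602) and Sdf2l1 with hlOSM (adjusted p = 0.0651) were lost in that fit. In both fits genes of this list were called about as often as all genes, or less often.

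The genes whose pattern over the 12 libraries was most like that of Thbs4 were Gm13889 (Pearson r = 0.991), Card14 (0.989), Serpinb1a (0.987), 1200007C13Rik (0.987) and Cnksr1 (0.984), among 8662 genes that averaged 50 or more normalized counts. Serpinb1a, an inhibitor of neutrophil proteases, averaged 179 in PBS, 362 after mLIF, 458 after mOSM and 541 after hlOSM. The closest gene was Axl for Thbs1 (0.995), Ccnd1 for Thbs2 (0.990), Depdc5 for Thbs3 (0.896), Inhba for Tnc (0.991), Efemp2 for Spp1 (0.992), Smarca2 for Sparc (0.985), Rad50 for Postn (0.963) and Rai14 for Fn1 (0.956). The libraries of a condition share their treatment, and the genes were picked as the closest of 8662, so that these coefficients serve as a description.

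Cells other than cardiomyocytes contribute to such cultures, and several of the 9 genes are known products of fibroblasts, mural cells or endothelium. In these bulk libraries fewer cells of a type and less RNA per cell cannot be told apart. All 10 cardiomyocyte markers were detected, and their summed normalized counts lay between 51743 and 53874 in PBS, 45234 and 47476 after mLIF, 37188 and 41702 after mOSM, and 37994 and 40645 after hlOSM. Most of this sum was Ttn, which averaged 32924 normalized counts in PBS, where the sum averaged 52636. The sum fell to 87.4%, 74.0% and 74.9% of PBS, and the median log2 fold change of the 10 genes was −0.21, −0.28 and −0.31. Of the 10 genes 6, 7 and 7 were lowered (4, 7 and 7 with the replicate block) and none was raised. Beside these and the following marker counts, 9.91%, 31.2% and 37.9% of all genes passed in either direction (5.95%, 25.3% and 31.2% with the block). The 10 fibroblast markers summed to between 2507 and 2761 in PBS, 2406 and 2475 after mLIF (93.2% of PBS), 2536 and 2953 after mOSM (103%), and 2427 and 2667 after hlOSM (98.4%), but the sum hides opposite changes, since 4 genes (Col3a1, Dcn, Lum and Mfap5) were raised and 6 lowered with hlOSM (Lum not with the replicate block, adjusted p = 0.0748), against 3 and 5 with mOSM and 0 and 1 with mLIF. In the blocked fit 2 were raised and 5 lowered with mOSM, and 0 were raised and 0 lowered with mLIF.

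Mural markers moved in the direction of Thbs1 and Thbs2, as did the cardiomyocyte and Schwann cell lists. Mural sums were between 1953 and 2315 in PBS, 1772 and 1819 after mLIF, 1406 and 1495 after mOSM, and 1270 and 1351 after hlOSM, which is 86.0%, 69.4% and 63.5% of PBS, and 1, 7 and 8 of the 9 genes tested were lowered, with and without the replicate block. Of all genes 9.91%, 31.2% and 37.9% passed in these comparisons without the block. The largest part of the mural sum was Abcc9, which averaged 933 in PBS, where the sum averaged 2080, and 642 after hlOSM. Endothelial markers moved in the direction of Spp1 and Tnc, between 1339 and 1376 in PBS, 1351 and 1402 after mLIF, 1664 and 1837 after mOSM, and 1683 and 1876 after hlOSM, with 7 of 10 raised with mOSM and 8 with hlOSM (7 and 7 with the replicate block). With mLIF 0 were raised and 1 was lowered. The leukocyte list stood between 94.2% and 108% of PBS, and the medians of its 7 genes tested were −0.20, −0.05 and −0.27 for mLIF, mOSM and hlOSM. Of these genes 0, 1 and 2 were lowered (0, 0 and 1 with the replicate block) and 1 was raised, Cd68, in each comparison. It rose by 0.61 with mLIF (adjusted p = 0.0192), 1.22 with mOSM (adjusted p = 3.81e-06) and 1.28 with hlOSM (adjusted p = 1.49e-06). Schwann cell markers summed to between 78 and 88 in PBS, 61 and 64 after mLIF, 50 and 69 after mOSM, and 48 and 60 after hlOSM, which is 74.6%, 71.8% and 65.9% of PBS, and 0, 2 and 2 of the 3 genes tested were lowered (0, 1 and 2 with the replicate block). Platelet and mesothelial lists summed to between 34 and 53 and between 6 and 38 in single libraries, and the 2 platelet genes tested did not pass the threshold, while 0 mesothelial genes reached the filter. None of the listed markers in the table was at 0 in all libraries. The part of these cells in the differences of the 9 genes was not tested.

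**Figure D5:**
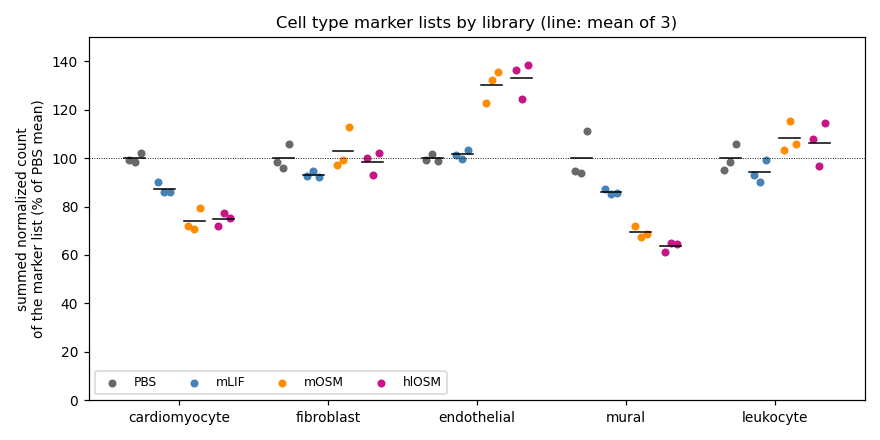
Summed normalized count of 5 marker lists (x axis) in each library (points), as % of the PBS mean of the same list (y axis, from 0, dotted line at 100), with a line at the mean of 3 libraries. Cardiomyocyte and mural lists are lowest with mOSM and hlOSM, at 74.0% and 74.9% and at 69.4% and 63.5%, and the endothelial list is highest there, at 130% and 133%. Most of the cardiomyocyte sum is Ttn.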

How the data were processed

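RNA of 12 libraries of primary cardiomyocytes (4 conditions, 3 libraries each, grouped by the sample titles) was sequenced from a stranded total RNA kit. After trimming, the authors used STAR 2.7.7a for alignment to mm10 and featureCounts 1.6.5 for counting, which kept reads that touched the exons of 1 gene and no other. The strand setting is not given in the sources used here. The values deposited by the authors are scores on a normalized count scale, rounded to whole numbers, and the normalization is not given in the sources used here. Tests that model read counts were therefore not used, and no counting error or interval was attached to single values. Every value column was mapped to a sample. The table holds gene positions, and identifiers of 22876 of 22915 genes were found in the reference annotation, 22676 with the same start and end, among them all 9 genes. Exon lengths are merged exons of that annotation.

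Tests used limma 3.58.1 in R 4.3.3 (lmFit, eBayes with a mean-variance trend, 1 fit of 4 conditions, two-sided, Benjamini-Hochberg over 13184 genes) on log2(normalized count + 1). The fit was checked on simulated data with independent libraries, which the deposited ones are not. With 3 libraries against 3 an exact permutation test cannot give a p under 0.1, so that none was run. The median of all log2 fold changes was within 0.01 of 0 in every comparison.

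The 9 genes, the gene lists and the markers were chosen with earlier results of these data known. Genes of the lists were taken from those that a rule gave: per list and comparison, up to 2 with the largest change past the threshold in each direction. Not all genes so given are named, and some values belong to a comparison other than the one that gave the gene. Atf6, Cd36 and Cd47 are named outside the rule. Fibroblast and other single markers are named as members of their list. As likeness, Pearson correlation of log2 values over the 12 libraries was used, with the 5 closest genes for Thbs4 and 1 for each other gene. The settings varied were the pseudocount (0.1 or 5), the filter (none, or 50), the scaling between libraries (trimmed mean of M-values, or quantiles), a fit of the 6 libraries compared, a block for the replicate number (printed beside the results, since differences between these numbers are missing from the deposited values), and each library left out in turn. Promoter windows come from RefSeq and carry no measurement of the study.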

Additional observations from a re-analysis of the deposited data

How the results depend on the processing

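Of 426 values of single genes under alternatives other than a left-out library, 416 kept their direction and their side of the threshold, and of 648 with a library left out 604 did. The number of genes past the threshold ranged, with libraries left out, from 1 to 4 for mLIF, 6 to 8 for mOSM and 7 to 9 for hlOSM against PBS, from 5 to 6 for mOSM and 5 to 8 for hlOSM against mLIF, and was 0 throughout for hlOSM against mOSM. Under the other alternatives no such number moved by more than 1.5 times. The 1 direction that turned without a library left out was that of Tnc with mLIF against PBS, 0.025 after quantile normalization. With libraries left out, mLIF against PBS ranged from −0.15 to 0.016 for Thbs2, −0.22 to 0.47 for Thbs3 and −0.031 to 0.012 for Tnc, and Postn for mOSM against mLIF from −0.094 to 0.085. For hlOSM against mOSM the ranges were −0.13 to 0.045 for Thbs2, −0.0019 to 0.39 for Thbs3, −0.0089 to 0.27 for Thbs4, −0.16 to 0.049 for Spp1 and −0.13 to 0.0090 for Sparc. The cause was not tested. A filter at 50 removed Thbs3, which then has no value. Over all genes, 14 passed for hlOSM against mOSM, but 0 in the fit of the 6 libraries compared, 2 with the replicate block, 6 without a filter, 7 after trimmed-mean rescaling and, among the falls, 1 (without mOSM replicate 3) to 16 (without PBS replicate 3) with a library left out. For mLIF against PBS 1307 passed, but 447 rose and 337 fell with the block, 273 and 229 without mLIF replicate 3, 422 and 194 without PBS replicate 3, and 500 and 327 or 509 and 343 without mLIF replicate 1 or 2.

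Pairing by replicate number was checked in 6626 genes: the 18 correlations of deviations between same-numbered libraries lay between −0.518 and 0.0221 (median −0.332), and 0 of 12 libraries correlated best with their own number. The check is void, since means over replicate numbers are equal in these values, which by itself gives negative correlations. With the replicate block, the numbers of genes past the threshold were 2, 6 and 8 against PBS, 5 and 5 against mLIF, and 0 for hlOSM against mOSM. Calls lost with the block were Fn1 for mLIF against PBS, and Sparc (adjusted p = 0.0842) and Postn (adjusted p = 0.0520) for hlOSM against mLIF. Values with a library left out rest on libraries that were equalized together with it. Low values limit Thbs3 most, at 4 to 23 normalized counts.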
